A study of Mus musculus with 12 samples.

Results

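The comparison of smoke with air in hosts deficient in RelA/p65 took in 6 of the 12 arrays of the series, chosen by their titles: 3 of deficient hosts exposed to smoke and 3 of deficient hosts exposed to air. All 19937 genes that a probe set names without ambiguity were compared. The hosts were female C57BL/6 mice bearing Lewis lung carcinoma, a transplantable mouse lung tumour, and total RNA came from tumour cells resected from the lungs. The other 6 arrays were of wild type hosts of the same sex and strain, 3 exposed to air and 3 to smoke, and are used only to show where the deficient hosts differed. RelA/p65 is a subunit of NF-kB, a transcription factor of inflammation. The series title places the deficiency in myeloid cells, but the labels do not name the deleted exons, the Cre driver, the smoke dose or duration, the animals' age, or whether each array came from its own animal. Replicates may therefore be technical, and the p-values speak only of the spread between these arrays. The number of arrays limits the precision.

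Smoke carries polycyclic aromatic compounds that bind the aryl hydrocarbon receptor, AhR, which then enters the nucleus and switches on genes for the enzymes that metabolise them. Electrophiles and oxidants in smoke act through a separate factor, NRF2, on genes of glutathione and quinone metabolism. Interferon-gamma, made by T and NK cells, acts on the genes for guanylate-binding proteins, on antigen presentation genes and on the checkpoint ligand PD-L1. Nonclassical monocytes are a blood monocyte class that patrols vessel walls and depends on the nuclear receptor Nr4a1.

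Promoter windows are shown for the changed genes of the xenobiotic and the interferon-inducible GTPase lists that hold the motif named for each list. They come from RefSeq on build GRCm38.p6 and run from 250 bases before to 50 bases after the annotated start of transcription, on the gene's own strand. In the first pair the capitals mark GCGTG, the core to which AhR and its partner ARNT bind, or its reverse complement. This short core was also present in 32.4% of all 32851 windows and for 44.4% of the 15613 measured genes with a window. Of the 3 changed AhR targets with a window 2 held it, and of all 6 with a window 4 did. The Cyp1a1 window lies at chr9:57697363-57697662 on the plus strand and the Cyp1b1 window at chr17:79715012-79715311 on the minus strand.
Cyp1a1: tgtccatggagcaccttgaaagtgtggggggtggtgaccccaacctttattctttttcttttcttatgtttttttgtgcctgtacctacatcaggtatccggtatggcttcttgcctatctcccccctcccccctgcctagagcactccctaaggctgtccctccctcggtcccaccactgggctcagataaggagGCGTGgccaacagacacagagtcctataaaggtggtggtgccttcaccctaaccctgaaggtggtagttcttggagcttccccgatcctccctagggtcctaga
Cyp1b1: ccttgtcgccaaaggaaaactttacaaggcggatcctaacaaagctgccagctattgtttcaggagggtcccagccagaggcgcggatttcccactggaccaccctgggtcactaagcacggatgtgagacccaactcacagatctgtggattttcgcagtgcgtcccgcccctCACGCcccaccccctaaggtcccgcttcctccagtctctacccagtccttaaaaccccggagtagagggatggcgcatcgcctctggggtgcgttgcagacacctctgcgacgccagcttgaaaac
In the other windows the capitals mark the core of the interferon-stimulated response element, searched as GAAA, any 2 bases and GAAA again, on either strand, with overlapping matches joined. The Gbp2b window lies at chr3:142594597-142594896, that of Gbp3 at chr3:142559794-142560093, that of Gbp5 at chr3:142496684-142496983 and that of Gbp7 at chr3:142530086-142530385, each on the plus strand. The Irgm1 window lies at chr11:48871371-48871670 on the minus strand.
Gbp2b: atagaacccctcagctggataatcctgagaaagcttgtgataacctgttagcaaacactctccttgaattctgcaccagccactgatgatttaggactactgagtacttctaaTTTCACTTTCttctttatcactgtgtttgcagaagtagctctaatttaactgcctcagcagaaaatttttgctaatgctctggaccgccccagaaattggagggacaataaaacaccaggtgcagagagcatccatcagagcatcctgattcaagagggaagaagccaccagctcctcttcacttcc
Gbp3: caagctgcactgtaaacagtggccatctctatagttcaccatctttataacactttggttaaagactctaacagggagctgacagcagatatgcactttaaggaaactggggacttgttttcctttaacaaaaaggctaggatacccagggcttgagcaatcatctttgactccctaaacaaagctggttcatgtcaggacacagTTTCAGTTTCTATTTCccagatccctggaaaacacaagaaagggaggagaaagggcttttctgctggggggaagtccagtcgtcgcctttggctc
Gbp5: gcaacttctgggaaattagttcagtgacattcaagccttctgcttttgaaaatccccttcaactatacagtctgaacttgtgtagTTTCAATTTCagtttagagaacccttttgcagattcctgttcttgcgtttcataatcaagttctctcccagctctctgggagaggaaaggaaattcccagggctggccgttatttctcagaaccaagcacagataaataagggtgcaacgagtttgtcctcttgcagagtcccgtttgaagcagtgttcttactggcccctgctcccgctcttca
Gbp7: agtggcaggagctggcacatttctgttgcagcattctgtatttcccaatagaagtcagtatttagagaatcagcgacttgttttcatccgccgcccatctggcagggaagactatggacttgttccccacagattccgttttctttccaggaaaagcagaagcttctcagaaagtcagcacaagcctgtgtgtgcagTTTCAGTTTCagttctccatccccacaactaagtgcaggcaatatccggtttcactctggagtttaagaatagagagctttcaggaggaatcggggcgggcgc
Irgm1: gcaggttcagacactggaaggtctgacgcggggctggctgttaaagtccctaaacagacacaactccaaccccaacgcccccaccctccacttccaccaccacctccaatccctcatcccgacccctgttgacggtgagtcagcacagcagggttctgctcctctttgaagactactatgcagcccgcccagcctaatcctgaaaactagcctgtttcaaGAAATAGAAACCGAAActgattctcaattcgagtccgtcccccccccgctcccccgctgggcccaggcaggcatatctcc
All 5 members of the GTPase list that had a window held this core, against 3.4% of all windows and 3.9% of the 15613 measured genes with a window. The other 5 members were not among the matched windows. A match of letters is a description of the sequence and does not show binding.

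Smoke changed 481 genes in deficient hosts (2.41% of those tested, limma with a Benjamini-Hochberg adjusted p under 0.05). Of these, 138 were higher with smoke (0.692%) and 343 lower (1.72%), and in each of the 481 the 3 smoke arrays lay entirely above or below the 3 air arrays. The shares of 0.692% and 1.72% are the background for every count of called list members given below. Over all genes, 22.7% had arrays that did not overlap, 8.97% with smoke above air and 13.7% below. The changes were mostly small: 11 genes rose and 43 fell at least 2-fold, and the median log2 difference was 0.45 among genes that rose, -0.54 among genes that fell and -0.0034 over all genes. Exposure separated the 6 arrays on the first principal component, which held 51.3% of their variance, with scores of -11.0, -12.4 and -11.4 for air and 13, 9.16 and 12.7 for smoke. Leaving out any 1 of the 6 arrays lowered the count of changed genes to between 261 (without air replicate 2 or 3) and 320 (without smoke replicate 2). With the 6 deficient arrays fitted alone it was 1018, and without wild type smoke replicate 1 the genes called higher numbered 211.

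**Figure D1:**
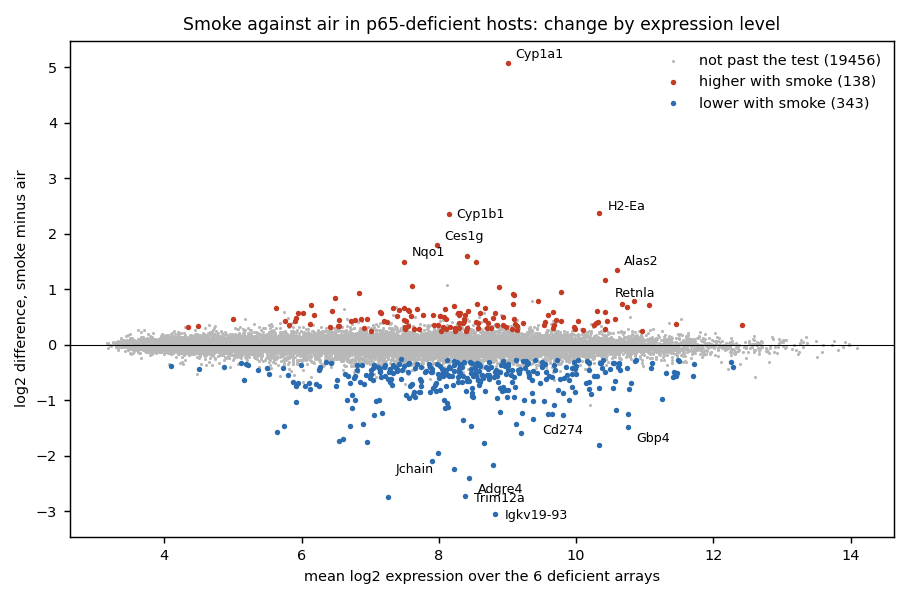
Each point is 1 of 19937 genes, with the mean log2 expression over the 6 deficient arrays on the x axis and the log2 difference of smoke minus air on the y axis. Red marks the 138 genes that were higher with smoke, blue the 343 that were lower, and Cyp1a1 stands apart from all others at 5.08.

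Lung markers were bright in the resected tissue and differed little between the exposures. Sftpc, the type II cell surfactant protein gene, read between 14.04 and 14.15 on the log2 scale over the 6 deficient arrays, and Scgb1a1, the club cell secretoglobin gene, between 13.69 and 13.82. Of 23 alveolar epithelial markers 1, Abca3, was higher with smoke (a call lost without any 1 array other than smoke replicate 1, adjusted p up to 0.120) and none was lower, with a median difference of -0.03, and the mean level of the list was 11.48 to 11.52 in air and 11.41 to 11.54 in smoke. The epithelial genes Epcam (-0.08, adjusted p = 0.939) and Krt18 (0.04, adjusted p = 0.985) and the mesenchymal gene Vim (0.03, adjusted p = 0.993) did not pass the test. No marker used here is specific to Lewis lung carcinoma cells, so the share of tumour RNA was not measured. Rela, which encodes p65, read 9.45, 9.44 and 9.38 in air and 9.30, 9.37 and 9.27 in smoke, a difference of -0.11 ± 0.07 (SE; adjusted p = 0.677). Its level in wild type air was 9.23, so the array did not show a lower Rela signal in the deficient tissue, and whether its probes lie in the deleted part is not stated.

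The largest response was in the targets of AhR. Cyp1a1, the cytochrome P450 that oxidises polycyclic aromatic hydrocarbons, read 6.56, 6.54 and 6.30 in the air arrays and 11.46, 11.54 and 11.63 in the smoke arrays. Every smoke array lay far above every air array, a difference of 5.08 ± 0.10 (33.7-fold; adjusted p = 6.60e-12). Cyp1b1, a related P450 found outside the liver, read 6.87, 7.07 and 6.97 in air and 9.17, 9.41 and 9.39 in smoke, a rise of 2.35 ± 0.10 (5.12-fold; adjusted p = 3.40e-08). The quinone reductase gene Nqo1 went from 6.90, 6.61 and 6.74 to 8.27, 8.24 and 8.23, a rise of 1.50 ± 0.10 (adjusted p = 2.03e-06). For the aldehyde dehydrogenase gene Aldh3a1 the readings were 7.84, 7.78 and 7.78 in air and 9.14, 9.44 and 9.31 in smoke, a rise of 1.50 ± 0.13 (adjusted p = 3.29e-05). The groups did not overlap in any of these 4 genes, and each call held under every alternative that kept the gene.

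Of 7 measured AhR targets these 4 rose (0.692% over all genes) and none fell, with a median difference of 1.50. The other 3 did not pass the test. Ahrr, the repressor of the receptor, differed by 0.05 ± 0.13 (adjusted p = 0.995), and the ADP-ribosyltransferase Tiparp by -0.13 ± 0.08 (adjusted p = 0.737), although the windows of both hold the GCGTG core. Cyp1a2, the liver relative of Cyp1a1, read between 4.31 and 4.55 on all 6 arrays and differed by 0.05 (adjusted p = 0.963). The receptor gene Ahr read 9.74, 9.69 and 9.67 in air and 9.82, 9.88 and 9.85 in smoke, higher on each smoke array but by 0.16 ± 0.07, which missed the test (adjusted p = 0.431). Its partner Arnt differed by -0.07 (adjusted p = 0.852). None of the 4 measured members of the receptor complex passed.

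NRF2 targets other than Nqo1 moved less. Gclc, the catalytic subunit of glutathione synthesis, rose from 10.19, 10.14 and 10.06 to 10.64, 10.80 and 10.73, by 0.59 ± 0.06 (adjusted p = 0.000142). The glutathione peroxidase Gpx2 rose by 0.69 ± 0.09 (adjusted p = 0.00113), and the carbonyl reductase Cbr3 by 0.58 ± 0.08 (adjusted p = 0.000966). These were the only 3 of 29 measured members of the list to pass, none fell, and the median of the list was 0.10 (0.06 without air replicate 3). Nfe2l2, which encodes NRF2, differed by -0.17 (adjusted p = 0.517) and its inhibitor Keap1 by -0.03 (adjusted p = 0.985). The carboxylesterase gene Ces1g, chosen only by the size of its change, read 6.94, 7.12 and 7.18 in air and 8.73, 8.93 and 8.96 in smoke (1.79 ± 0.11, 3.46-fold).

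**Figure D2:**
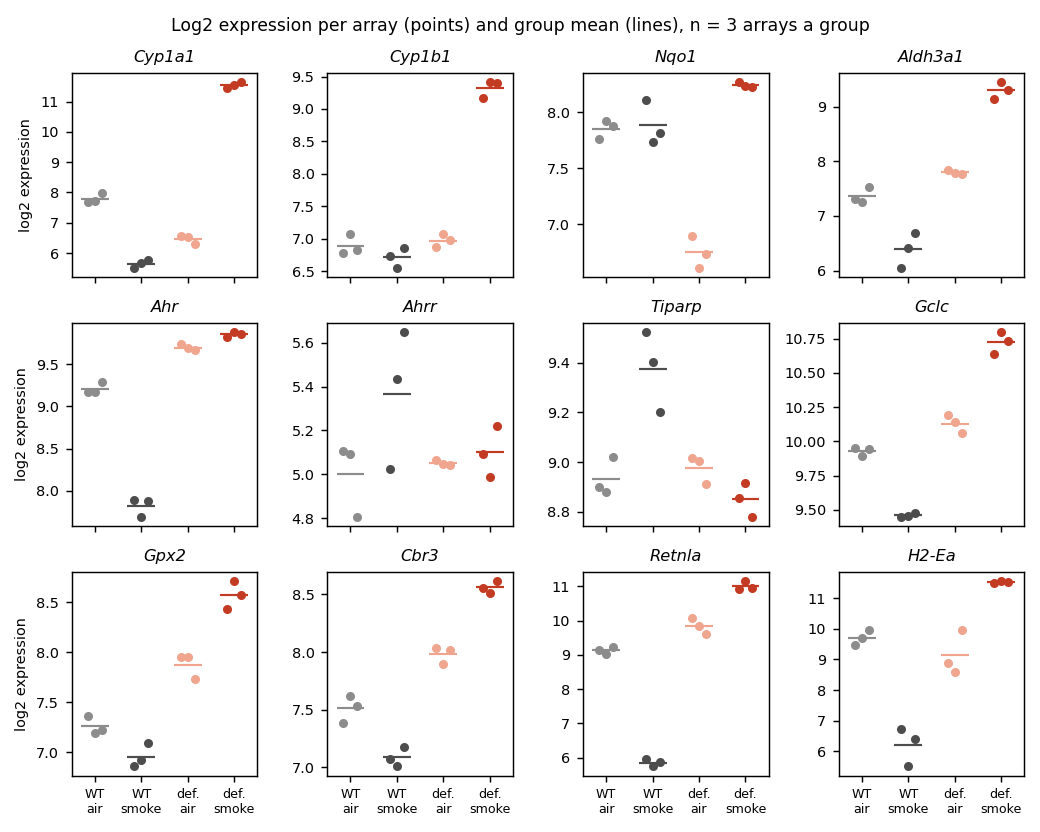
Log2 expression of 12 genes in each of the 12 arrays (points) with the group mean (lines) for wild type (WT) and deficient (def.) hosts in air and smoke, 3 arrays a group, on axes that differ between genes and do not start at 0. Cyp1a1, Cyp1b1, Nqo1 and Aldh3a1 are highest in the 3 deficient smoke arrays, whereas Ahrr and Tiparp are not, and H2-Ea shows 1 deficient air array at 9.95 against 8.89 and 8.59.

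The genes that fell were led by immune genes. The interferon-inducible GTPases, proteins that attack the membranes around intracellular microbes, were lower with smoke in 9 of 10 measured members (1.72% over all genes). Their median difference was -1.20 against -0.0034 over all genes. Members of this and the other lists were chosen with earlier results of these data known, so list counts and medians only describe. Gbp4 read 11.45, 11.56 and 11.46 in air and 9.81, 10.38 and 9.83 in smoke, a difference of -1.49 ± 0.19 (adjusted p = 0.000694). Gbp5 read 9.86, 9.84 and 9.80 in air and 8.33, 8.74 and 8.18 in smoke (-1.42 ± 0.21, adjusted p = 0.00210). In both genes smoke replicate 2 was the highest of the smoke arrays but still lay below every air array. Gbp8 (-1.58), Gbp7 (-1.24), Gbp2b (-1.23), Gbp3 (-1.17), Gbp11 (-0.94), Irgm1 (-0.87) and Gbp9 (-0.85) also fell. Iigp1, at 10.62, 10.79 and 10.80 in air against 9.56, 10.05 and 9.36 in smoke, missed the test (-1.08 ± 0.28, adjusted p = 0.0701).

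The count of 9 GTPases fell to 6 without smoke replicate 1 or smoke replicate 3 and was 7 without any 1 air array. The calls of Gbp2b (adjusted p up to 0.0974) and Irgm1 (up to 0.0905) were lost without any 1 deficient array other than smoke replicate 2, and that of Gbp3 without smoke replicate 1 or 3 (0.0502 and 0.0527). Gm12250 and Gm12185, named by the size of their change, also fell (-1.81 ± 0.30, adjusted p = 0.00470, and -1.75 ± 0.16). Trim12a and Trim30d, members of a TRIM cluster that includes restriction factors, fell further or about as far. Trim12a went from 9.77, 9.77 and 9.68 to 6.96, 7.06 and 7.01, the third largest fall of all (-2.73 ± 0.10, adjusted p = 8.99e-09), and Trim30d fell as well (-1.74 ± 0.10).

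Other interferon genes gave fewer calls. Of 25 antiviral interferon-stimulated genes 1 rose and 1 fell, with a median of -0.19. In 14 of the 25 all smoke arrays lay below all air arrays (13.7% over all genes), and in 1 they lay above. Rsad2, the antiviral enzyme viperin, rose from 8.33, 8.30 and 8.43 to 9.13, 9.59 and 9.44 (1.04 ± 0.19, adjusted p = 0.0105), a call lost without air replicate 1 or 2 or smoke replicate 2 or 3 (adjusted p up to 0.0565). Oas2, which senses double-stranded RNA, fell (-0.74 ± 0.17, adjusted p = 0.0356), a call lost without any 1 of the 6 arrays (adjusted p up to 0.161). None of the 4 CXCR3 chemokine and receptor genes passed. Cxcl9 read 8.84, 8.75 and 8.91 in air and 8.90, 9.30 and 8.15 in smoke, and Cxcl10 read 9.73, 9.71 and 9.88 in air and 9.73, 10.40 and 9.72 in smoke, so the smoke arrays spread to both sides of the air arrays for Cxcl9, and for Cxcl10 1 lay above them and the others within their range. Ifng itself was dim, at 5.64 to 5.88 on all 6 arrays, with a difference of -0.09 (adjusted p = 0.951). Of 16 interferon signalling genes the transcription factors Irf1 (-0.65, adjusted p = 0.00259) and Irf8 (-0.43 ± 0.07, adjusted p = 0.00514) fell, and in 9 of the 16 all smoke arrays lay below all air arrays. Irf1 has 2 probe sets, the dimmer of which differed by -0.02, and the gene missed the test as their mean (adjusted p = 0.0508).

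Antigen presentation by MHC class I was lower with smoke in 6 of 11 members (1.72% over all genes) and higher in none, with a median of -0.29. The count was 4 without any 1 of the 6 arrays other than smoke replicate 2. Tapbp, 1 of the 6 members, lost its call in 10 of 20 settings (adjusted p up to 0.235). Tap1, a subunit of the peptide transporter, read 10.56, 10.59 and 10.58 in air and 9.64, 9.97 and 9.74 in smoke (-0.79 ± 0.13, adjusted p = 0.00514). The other subunit gene Tap2 (-0.56 ± 0.07) and the class Ib gene H2-M3 (-0.72 ± 0.11) also fell. The shared light chain B2m, which was among the brightest genes, differed by -0.13 (adjusted p = 0.673). Of 5 immunoproteasome genes, whose products cut peptides for class I, Psmb9 (-0.78 ± 0.12, adjusted p = 0.00237) and Psmb8 (-0.69 ± 0.15, adjusted p = 0.0294) fell. The Psmb8 call was lost without any 1 of the 6 arrays (adjusted p up to 0.130), and that of H2-Q4 without any but smoke replicate 2 (up to 0.157). Nlrc5, the activator of class I genes, was not called by its brightest probe set (0.01 ± 0.12), but 13 of its 19 probe sets were lower and none was higher.

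MHC class II genes, which display peptides to helper T cells, mostly read lower with smoke. The class II transactivator Ciita read 8.59, 8.71 and 8.64 in air and 7.57, 7.74 and 7.51 in smoke, a difference of -1.04 ± 0.08 (adjusted p = 5.71e-06). The beta chain gene H2-Eb2 (-1.42 ± 0.15), the peptide-loading inhibitor H2-Ob (-1.36) and the loading subunit H2-DMa (-0.81 ± 0.10) fell with it. The abundant chains H2-Aa, H2-Ab1 and H2-Eb1 and the invariant chain Cd74 were lower on each smoke array than on any air array, with differences of -0.35, -0.57, -0.30 and -0.43, but missed the test (adjusted p from 0.0880 to 0.158). Over the 11 measured class II presentation genes 3 fell (1.72% over all genes), 1 rose (0.692%) and the median was -0.35. In 8 of the 11 all smoke arrays lay below all air arrays (13.7% over all genes), and in 1 they lay above.

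The member that rose was H2-Ea, the alpha chain of the E molecule, which C57BL/6 mice are known to lack because their allele carries a promoter deletion. Its readings were 8.89, 8.59 and 9.95 in air and 11.48, 11.55 and 11.52 in smoke, a rise of 2.38 ± 0.32 (5.19-fold; adjusted p = 0.00113). The 3 smoke arrays lay close together and above every air array, while air replicate 3 stood apart from the other air arrays. In wild type hosts the mean was 9.71 in air and 6.22 in smoke. The labels give the same strain for all 12 arrays, and whether alleles of another strain differ between the groups was not tested.

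Genes that restrain T cells were lower in 3 of 14 members (1.72% over all genes). Ido1, the tryptophan-degrading enzyme, read 9.01, 8.95 and 8.96 in air and 6.82, 7.33 and 6.90 in smoke, a difference of -1.96 ± 0.16 (3.88-fold; adjusted p = 1.36e-05). Cd274, which encodes PD-L1, went from 10.04, 10.14 and 9.95 to 8.51, 8.86 and 8.74 (-1.34 ± 0.12, adjusted p = 4.44e-05). Pdcd1lg2, which encodes PD-L2, fell (-0.54 ± 0.07, adjusted p = 0.000993). All 3 calls held under every alternative that kept the gene.

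Nonclassical monocyte markers fell in 9 of 11 measured members (1.72% over all genes), with a median of -0.85. Adgre4, an adhesion receptor of these cells, read 9.58, 9.79 and 9.53 in air and 7.17, 7.31 and 7.21 in smoke (-2.40 ± 0.10, 5.29-fold, adjusted p = 3.40e-08). Treml4 went from 9.90, 9.84 and 9.87 to 7.66, 7.78 and 7.66 (-2.16 ± 0.14), and Cd300e from 9.45, 9.55 and 9.62 to 7.73, 7.95 and 7.66 (-1.76 ± 0.11). Nr4a1, on which the class depends, fell (-1.25 ± 0.07, adjusted p = 4.53e-07), as did the integrin gene Itgal (-1.0 ± 0.10), the sialomucin gene Spn (-0.85 ± 0.09), the peptidoglycan recognition gene Pglyrp1 (-0.77 ± 0.07), Gngt2 (-0.78 ± 0.12) and the chemokine receptor gene Cx3cr1 (-0.64 ± 0.13, adjusted p = 0.0233). The Cx3cr1 call was lost without any 1 array other than smoke replicate 1 (adjusted p up to 0.124), and the count was 8 or 9 without any 1 array. Ace, which endothelium also expresses, differed by 0.00, and Pou2f2 by -0.37 (adjusted p = 0.0790). In bulk tissue, fewer cells of a type and less RNA per cell cannot be told apart.

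Other macrophage and monocyte markers changed little beside them. Of 20 markers 2 fell, Csf1r (-0.56 ± 0.06, adjusted p = 0.000116), the receptor for macrophage growth factor, and Adgre1 (-0.57 ± 0.12, adjusted p = 0.0214), a call lost without any 1 of the 6 arrays (adjusted p up to 0.112). The median of the list was -0.03, and its mean level was 9.38 to 9.43 in air and 9.27 to 9.37 in smoke. Retnla, a product of alternatively activated macrophages, rose from 10.07, 9.85 and 9.60 to 10.93, 11.15 and 10.94 (1.17 ± 0.11, 2.24-fold, adjusted p = 5.91e-05). Of 21 alveolar and smoke macrophage markers 4 rose (0.692% over all genes) and none fell. They were the lysosomal glycoprotein gene Gpnmb (0.78 ± 0.13), the arginine transporter gene Slc7a2 (0.47 ± 0.06), the proton pump subunit gene Atp6v0d2 (0.44 ± 0.10) and the keratin gene Krt79 (0.54 ± 0.11). The count was 2 without any 1 array other than air replicate 1. The median of this list was 0.12, and the difference was below 0 in 9 of the 21. All smoke arrays lay above all air arrays in 8 members (8.97% over all genes) and below them in 5 (13.7%).

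Cytotoxic lymphocyte genes fell in 7 of 18 members (1.72% over all genes), with a median of -0.26. The granzyme gene Gzma read 9.89, 9.88 and 9.87 in air and 8.78, 8.94 and 8.87 in smoke (-1.02 ± 0.11, adjusted p = 0.00014). Gzmb (-1.14 ± 0.21, adjusted p = 0.00975), the receptor gene Klrg1 (-0.99 ± 0.10), the pore protein gene Prf1 (-0.84 ± 0.13) and the granule membrane gene Nkg7 (-0.76 ± 0.08) also fell. The killer receptor genes Klrb1c (-0.01) and Klrd1 (-0.00) did not pass. The count was 4 without air replicate 1, air replicate 3 or smoke replicate 1, and the Gzmb call was lost without the same 3 arrays (adjusted p up to 0.0615). Ccl5, which attracts T cells, fell (-0.79 ± 0.17, adjusted p = 0.0232), a call lost without any array other than smoke replicate 2 (up to 0.123). T cell markers fell in 2 of 21, the receptor chain genes Cd3d (-0.36 ± 0.09, adjusted p = 0.0497) and Cd3g (-0.41 ± 0.08, adjusted p = 0.0152), and in 0 or 1 without any 1 of the 6 arrays (adjusted p up to 0.209 and 0.103).

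Antibody genes supplied some of the largest falls. The kappa variable gene Igkv19-93 read 10.29, 10.37 and 10.38 in air and 7.34, 7.34 and 7.22 in smoke, the largest fall of all genes (-3.05 ± 0.11, 8.26-fold, adjusted p = 5.05e-09), and Igkv9-120 followed at -2.74 ± 0.16. A dimmer probe set of Igkv19-93 differed by -0.07, and the signal of near-identical variable genes cannot be assigned with certainty by hybridisation. Jchain, which joins IgA and IgM units, went from 9.40, 9.32 and 9.29 to 7.51, 7.02 and 6.75 (-2.24 ± 0.16), and the IgA constant gene Igha fell in both of its probe sets (-1.46 ± 0.17 in the brighter and -1.23 in the other). The B cell marker Ms4a1, which encodes CD20, and the receptor chain gene Cd79b fell (-0.90 ± 0.09 and -0.58 ± 0.10). The complement receptor gene Cr2 (-0.35 ± 0.08) fell too, a call lost without any 1 of the 6 arrays (adjusted p up to 0.163), and the signalling adaptor gene Bank1 (-0.41 ± 0.07), a call lost with quantile normalization (adjusted p = 0.0859). In all, 4 of 16 B cell markers (3 without any 1 array) and 2 of 9 plasma cell markers fell (1.72% over all genes) and none rose.

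**Figure D3:**
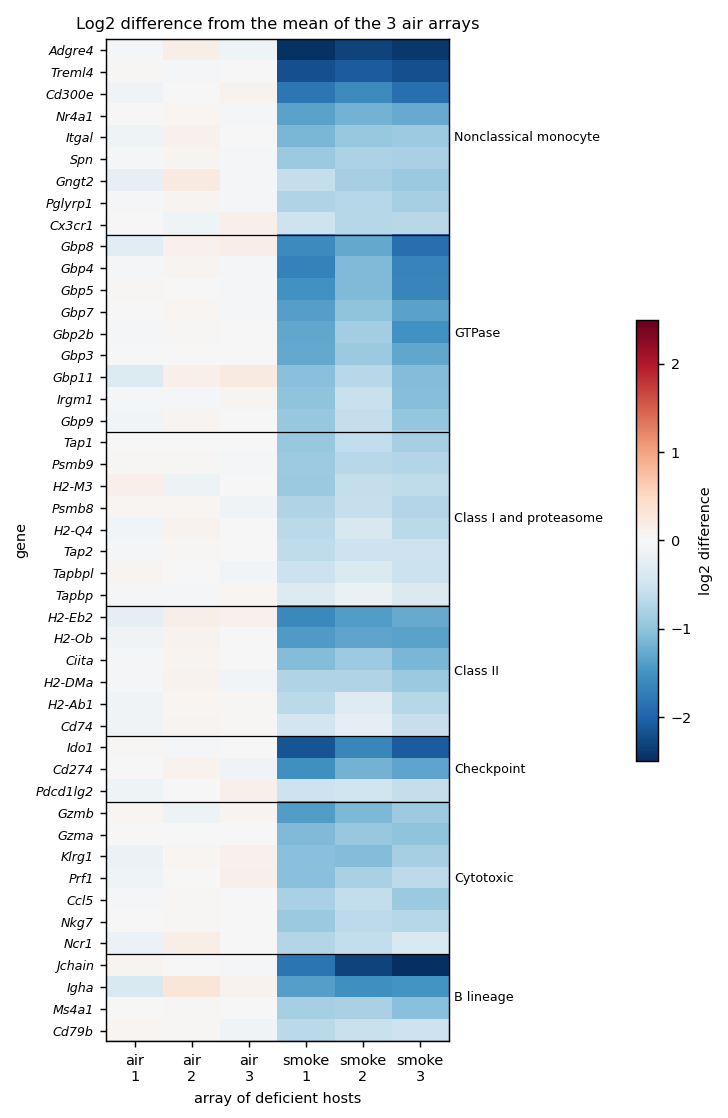
Log2 difference of each deficient array (columns, 3 air and 3 smoke) from the mean of the 3 air arrays for 46 genes of 7 groups (rows), blue where lower and red where higher. The rows are chosen members, so the colours do not describe whole lists. Left out were, among others, H2-Ea, which rose, and Ace, B2m, Klrb1c and Klrd1, which did not pass the test. Smoke columns of the chosen genes are blue in every group, with Adgre4, Treml4, Ido1 and Jchain the deepest. Smoke replicate 2 is paler than the other smoke arrays in the GTPase and class I genes.

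Dendritic cell markers moved both ways. Genes of the cross-presenting class fell, namely the chemokine receptor Xcr1 from 7.06, 6.93 and 7.14 to 6.31, 6.34 and 6.41 (-0.69 ± 0.10, adjusted p = 0.00244) and the dead-cell receptor gene Clec9a (-0.67). The maturation marker Cd83 (-0.53 ± 0.08) and Itgae (-0.39) also fell. Ccl17, a chemokine of mature dendritic cells, rose from 7.27, 7.26 and 7.24 to 7.83, 7.99 and 7.80 (0.61 ± 0.09, adjusted p = 0.00143) and the related Ccl22 by 0.43 ± 0.09 (adjusted p = 0.0170). In all 4 of 16 fell (1.72% over all genes) and 2 rose (0.692%). The calls of Itgae (adjusted p up to 0.0946) and Ccl22 (up to 0.0978) were lost without air replicate 1 or 3 or smoke replicate 2 or 3, and that of Itgae also without smoke replicate 1.

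Neutrophil markers rose in 6 of 23 (0.692% over all genes) and fell in none, with a median of 0.12 (0.07 or 0.08 without air replicate 2 or 3 or smoke replicate 2). The difference was below 0 in 10 of the 23, the lowest at -0.58. All smoke arrays lay above all air arrays in 8 members (8.97% over all genes) and below them in 5 (13.7%). The chemokine receptor gene Cxcr2 rose from 7.26, 7.20 and 7.03 to 7.83, 7.94 and 7.71 (0.66 ± 0.11, adjusted p = 0.00517), and the calprotectin genes S100a8 and S100a9 rose by 0.57 ± 0.08 and 0.59 ± 0.10. Retnlg rose by 0.50 ± 0.09 (adjusted p = 0.00793), a call lost without air replicate 3 (0.0528), without which the count was 3. The protease inhibitor gene Slpi (0.28 ± 0.05) and Il1f9 (0.43 ± 0.09) also rose, calls lost without any 1 array other than, for Slpi, air replicate 1 (adjusted p up to 0.0917 and 0.121). The granule genes Camp (-0.07), Ltf (-0.26) and Mpo (-0.17) and the surface marker Ly6g (-0.12) did not pass, nor did any of 6 neutrophil chemokines.

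NF-kB genes themselves changed little. Of 13 subunit and inhibitor genes 2 fell, Rel (-0.38 ± 0.09, adjusted p = 0.0324) and the deubiquitinase Tnfaip3 (-0.32 ± 0.07, adjusted p = 0.0289), and both calls were lost without any 1 of the 6 arrays (adjusted p up to 0.149 and 0.156). Of 25 target genes Tnf went from 7.07, 7.08 and 6.93 to 6.54, 6.53 and 6.67 (-0.44 ± 0.08, adjusted p = 0.00872, lost without air replicate 1 or 2 at 0.0521 and 0.0563). Cd83, given above, was the other target to fall, and none rose. Il6 stayed dim at 3.63 to 3.89 on all 6 arrays.

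Genes of haem synthesis and red cells rose in part, in 4 of 15 members (0.692% over all genes). Alas2, the first enzyme of haem synthesis in red cell precursors, read 9.89, 10 and 9.88 in air and 11.15, 11.36 and 11.30 in smoke (1.34 ± 0.09, 2.54-fold, adjusted p = 3.76e-06). The red cell anion exchanger gene Slc4a1 rose by 1.07 ± 0.10, Bpgm, which makes the regulator of haemoglobin's oxygen affinity, by 0.95 ± 0.08, and Fech, the last enzyme of haem synthesis, by 0.61 ± 0.10. These 4 of 15 members passed in every setting, whereas the erythroid transcription factors Gata1 (0.10) and Klf1 (0.03) did not pass. Tent5c, chosen by the size of its change, rose by 0.90 ± 0.09.

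Endothelial and fibroblast lists gave few calls, and mesothelial and adipocyte genes more. The endothelial list had a median of -0.03, and the difference was below 0 in 13 of its 23 members. All smoke arrays lay below all air arrays in 7 of the 23 (13.7% over all genes) and above them in 3 (8.97%). Esm1, an endothelial proteoglycan, rose from 7.43, 7.70 and 7.68 to 9.04, 9.26 and 9.33 (1.61 ± 0.11, 3.04-fold, adjusted p = 2.03e-06), and of 23 endothelial markers Vwf rose by 0.44 ± 0.07 and Aplnr by 0.48, the latter call lost without air replicate 1 or 3 or smoke replicate 2 or 3 (adjusted p up to 0.0824). Eln, which encodes elastin, rose by 0.92 ± 0.09 (adjusted p = 8.66e-05) and was the only one of the 4 of 22 fibroblast and matrix genes called that held without each array in turn. The other calls were Col6a1 (0.28), Pdgfrb (0.29) and Mmp3 (0.58), which reached adjusted p-values of 0.266, 0.0798 and 0.142 with an array left out. Lyve1, a hyaluronan receptor of lymphatic endothelium, rose from 10.70, 10.73 and 10.67 to 11.37, 11.49 and 11.38 (0.71 ± 0.07). Among mesothelial and adipocyte genes 4 of 8 fell (1.72% over all genes) and none rose, a count that was also 4 without any 1 of the 6 arrays. Mesothelin, Msln, read 9.35, 9.44 and 9.34 in air and 8.50, 8.63 and 8.55 in smoke (-0.82 ± 0.08), Upk3b (-0.83 ± 0.14) and Lrrn4 (-0.61 ± 0.09) fell, and the fat cell hormone gene Adipoq went from 7.12, 7.20 and 7.17 to 6.10, 6.20 and 6.20 (-0.99 ± 0.07). The mesothelial transcription factor gene Wt1 did not pass (-0.00), and the mean level of the 8 genes was 7.40 to 7.46 in air and 6.90 to 7.02 in smoke.

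Of 16 circadian clock genes 5 fell (1.72% over all genes) and none rose. Dbp, a transcription factor driven directly by the clock, read 10.04, 10.14 and 9.91 in air and 8.95, 9.07 and 9.05 in smoke (-1.01 ± 0.08, adjusted p = 1.91e-05). The repressors Nr1d1 and Nr1d2 fell (-0.95 ± 0.08 and -0.67 ± 0.08), and so did Ciart (-0.95 ± 0.15) and Tef (-0.36 ± 0.07, a call lost without any 1 array other than smoke replicate 2, adjusted p up to 0.0799). The core genes Arntl (0.19), Clock (0.06), Per2 (-0.07) and Cry1 (0.04) did not pass. The labels give no time of day, and its part was not tested. The 18 immediate early genes had a median of 0.02, and the difference was above 0 in 10 of them. All smoke arrays lay above all air arrays in 3 (8.97% over all genes) and below them in 5 (13.7%). Of the 18, 4 fell and none rose. They were Nr4a1, given above, Atf3 (-0.50 ± 0.09), Klf2 (-0.48 ± 0.10) and Klf4, the last from 9.78, 9.82 and 9.79 to 8.84, 9.05 and 8.89 (-0.87 ± 0.08). The count was 2 without air replicate 2 or smoke replicate 1. The Atf3 call was lost without the same arrays (adjusted p up to 0.0636). That of Klf2 was lost with median centring, with the replicate block and without any 1 array other than smoke replicate 2 (adjusted p up to 0.126).

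Proliferation genes did not separate the exposures. None of 32 mitotic genes and none of 30 DNA replication genes passed, although the limma test of all genes found 2084 at an unadjusted p under 0.05. Mki67, a marker of cycling cells, read 9.11, 8.87 and 8.85 in air and 9.34, 8.70 and 8.80 in smoke. The mean of the mitotic list was 8.57 in smoke replicate 1 against 8.02 and 8.15 in the other smoke arrays. In air it was 8.38 in replicate 1 against 8.18 and 8.20. Replicate 1 was also the highest in wild type air (9.47) and wild type smoke (9.81), and what the replicate number marks is not stated. The median difference of the list was 0.01, -0.17 without smoke replicate 1 and 0.12 without smoke replicate 2. Myc (0.00), Ccnd1 (-0.02), Ctnnb1 (0.06) and Axin2 (0.14) did not pass, nor did any of 21 Wnt and 14 p53 target genes.

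The remaining lists gave few calls. Of 10 glucocorticoid-responsive genes Angptl4, which encodes an inhibitor of lipoprotein lipase, rose by 0.74 ± 0.10 (adjusted p = 0.00137), a call that held without each array in turn. Hypoxia and glycolysis genes fell in 2 of 22, with a median of -0.16: Adm, which encodes a vasodilator peptide (-0.56 ± 0.13, adjusted p = 0.0376), and the collagen prolyl hydroxylase gene P4ha1 (-0.33 ± 0.06, adjusted p = 0.0121). Both calls were lost without air replicate 1 or smoke replicate 2 or 3 (adjusted p up to 0.177 and 0.0737). Of 12 mast cell, basophil and eosinophil genes the IgE receptor gene Ms4a2 fell (-0.44 ± 0.08), a call lost without air replicate 3 (adjusted p = 0.0534). Of 6 platelet genes the receptor gene Clec1b rose by 0.32 ± 0.07, and of 16 muscle genes the myosin light chain gene Myl4 fell (-0.46 ± 0.10). The Clec1b call was lost without any 1 of the 6 arrays (adjusted p up to 0.141) and that of Myl4 without any but air replicate 3 (up to 0.123). Among 6 NRF2 regulators Maff, a small partner protein of NRF2, rose by 0.44 ± 0.08, a call lost without air replicate 2 or 3 or smoke replicate 2 or 3 (adjusted p up to 0.0689). Of 11 alternative activation genes Retnla rose and Pdcd1lg2 fell, of 21 airway markers Scgb3a1 rose by 0.73 ± 0.10, and none of 16 other chemokines passed.

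**Figure D4:**
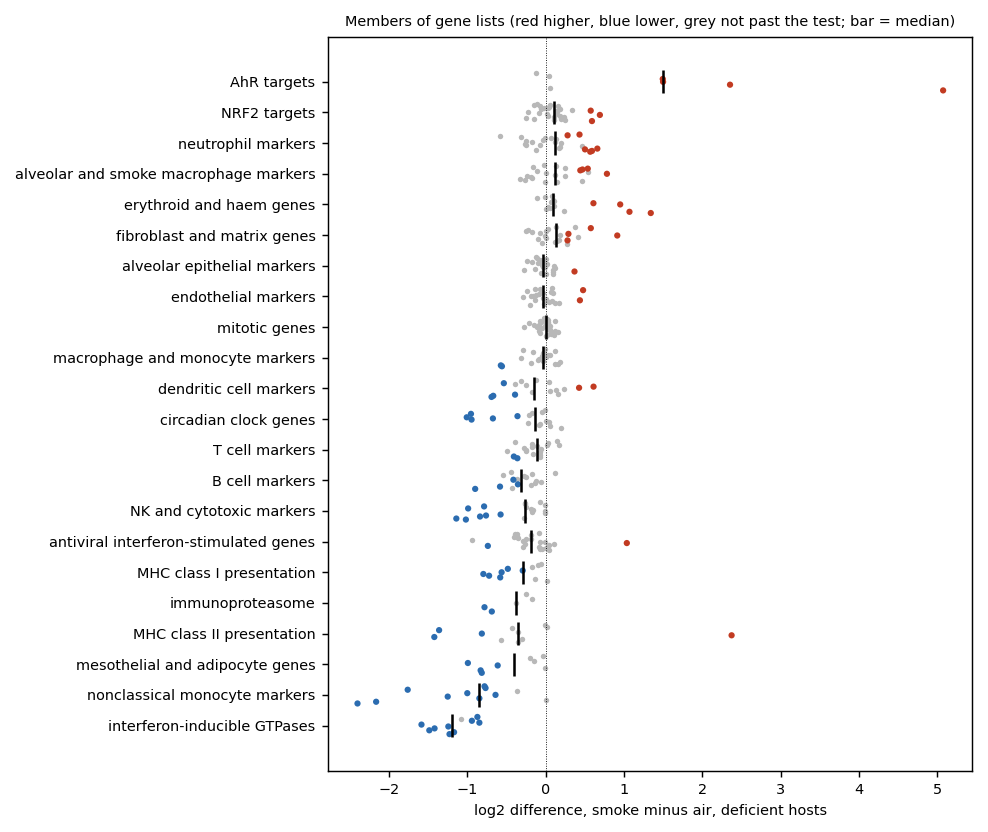
Each point is a measured member of 1 of 22 gene lists (y axis), placed at its log2 difference of smoke minus air in deficient hosts (x axis), red where higher, blue where lower and grey where it did not pass the test, with a black bar at the list's median. The bars of GTPases (-1.20) and nonclassical monocyte markers (-0.85) lie farthest to the left and that of AhR targets (1.50) farthest to the right, while H2-Ea is the red point at 2.38 among the class II genes.

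The smoke response of deficient hosts was then set against that of wild type hosts, using the test of the difference itself. In wild type hosts smoke changed 5778 genes (29.0%), and the difference between the smoke responses passed for 2909 genes (14.6%; 8.89% with the deficient change above and 5.70% below the wild type change). Of the 481 genes changed in deficient hosts, 173 were called in the same direction in wild type hosts, which is 36.0% of the deficient calls and 2.99% of the wild type calls. Another 120 were called in the opposite direction, and for 326 the difference passed. Among the 138 that rose, 34 rose, 49 fell and 55 did not pass in wild type hosts. Among the 343 that fell, 139 fell, 71 rose and 133 did not pass.

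Cyp1a1 differed most of the AhR targets. In wild type hosts its mean went from 7.79 in air to 5.65 in smoke, a change of -2.13, so the deficient change exceeded the wild type change by 7.21 (adjusted p of the difference = 6.24e-12). Cyp1b1 changed by -0.18 in wild type hosts (adjusted p = 0.201) and Nqo1 by 0.03 (adjusted p = 0.817), and in both the difference from the deficient change passed. Lung markers moved in the same tissue: 22 of 23 alveolar markers were lower with smoke in wild type hosts, with a median of -1.92 against -0.03 in deficient hosts. Scgb3a1, a secretoglobin of airway cells, rose by 0.73 in deficient hosts and changed by -3.31 in wild type hosts, and Retnla by 1.17 and -3.29. The part of lung content in these wild type falls was not tested.

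Among the immune genes that fell in deficient hosts, the GTPase and nonclassical monocyte lists had higher mean levels in deficient smoke than in the wild type arrays. The mean of the GTPase list was 9.017 to 9.52 in deficient smoke, 7.231 to 8.033 in wild type air and 7.265 to 7.399 in wild type smoke. In the same order, that of the nonclassical monocyte list was 8.134 to 8.22, 7.342 to 7.436 and 7.152 to 7.192. That of the AhR targets was 8.041 to 8.155, 6.856 to 6.931 and 6.553 to 6.688. Markers of lung cells were higher in the same arrays: the mean level of the alveolar list was 11.41 to 11.54 in deficient smoke and 8.51 to 10.72 over the wild type arrays, that of the airway list 8.98 to 9.09 and 6.28 to 8.48, and that of the endothelial list 10.50 to 10.67 and 8.42 to 9.78. The mean of the mitotic list was lower, at 8.02 to 8.57 against 9.28 to 9.81. The part of tissue composition in these levels was not tested. Adgre4 had a mean of 6.11 in wild type air and a wild type smoke change of -0.24 (adjusted p = 0.101), and the deficient change minus the wild type change was -2.17 (adjusted p = 2.17e-07). In the GTPase list 6 of 10 passed the test of the difference, all with the deficient change below the wild type change. In the nonclassical monocyte list 11 of 11 passed, 10 below and 1, Ace, above (2.08), and among the 10 was Pou2f2, which did not pass in deficient hosts. Cd274 changed by 0.33 in wild type hosts (adjusted p = 0.0592), a difference of -1.68. Csf1r rose by 0.65 and Adgre1 by 1.14 in wild type hosts, where 16 of 20 macrophage markers rose, and both fell in deficient hosts. Cd5l, a macrophage secreted protein, fell in deficient hosts (-1.57 ± 0.23) from 6.55, 6.81 and 5.94 to 4.64, 5.06 and 4.87, and rose by 2.03 in wild type hosts. Hypoxia and glycolysis genes rose in 19 of 22 in wild type hosts, with a median of 0.55 against -0.16 in deficient hosts, and 18 passed the test of the difference. Ms4a1 fell in both, with changes of -0.90 in deficient and -1.90 in wild type hosts, and S100a8 rose in both, by 0.57 and 0.67, with no difference past the test (adjusted p = 0.601).

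**Figure D5:**
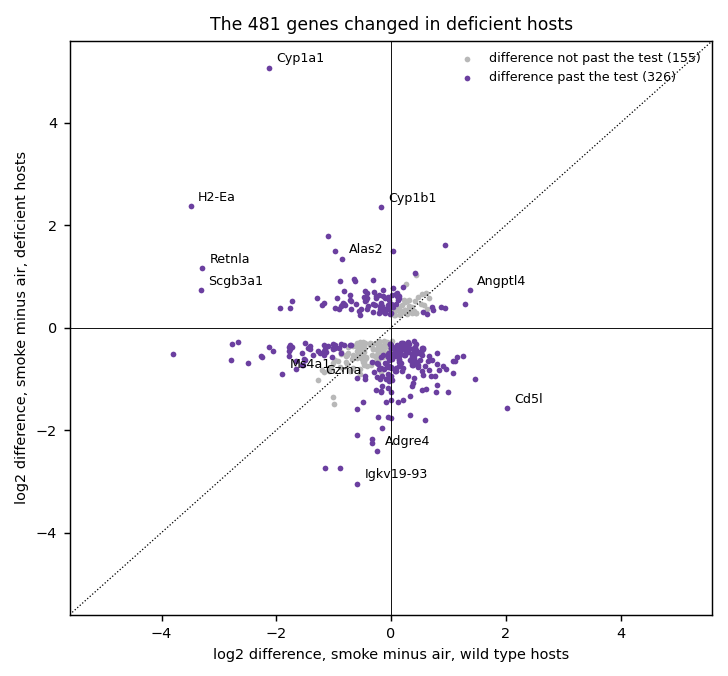
The 481 genes changed by smoke in deficient hosts, with the log2 difference of smoke minus air in wild type hosts on the x axis and in deficient hosts on the y axis. The 326 genes whose difference passed the test are purple and the other 155 grey, the dotted line marks equal changes, and Cyp1a1, H2-Ea, Retnla and Scgb3a1 lie at the upper left, higher in deficient and lower in wild type hosts.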

How the data were processed

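Total RNA of 12 samples was measured on Affymetrix whole-transcript arrays. Per the submitters' processing notes, the authors deposited log2 values made with RMA (background correction, quantile normalization and probe summary) in Affymetrix Expression Console, and the versions are not given in the sources used here. The table held 34760 probe sets, of which 21640 named 1 gene, 1321 named several and 11799 were unnamed; the last 2 kinds were left out. For a gene with several probe sets (954 of 19937 genes) the one with the highest mean over the 12 arrays was used. The GRCm38.p6 gene table held the Entrez identifier of 21553 probe sets, and 0 symbols changed.

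The 12 arrays were fitted together, with a mean for each group, in limma 3.58.1 in R 4.3.3 (residual df 8, prior df 4.83). Contrasts were smoke minus air in deficient hosts, the same in wild type hosts, and their difference, with 2-sided moderated tests, Benjamini-Hochberg adjustment over all genes and a limit of 0.05. Errors are moderated standard errors. On simulated data for the deficient comparison with 19937 genes, 99 of 100 genes shifted by 1 log2 unit, 61 of 100 shifted by 0.5 and 7 of 19737 unshifted genes were called. Gene lists, 44 in number with 681 of 751 members measured, are described by counts and medians with no test. The members and lists were chosen with earlier results of these data known.

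Genes were named by rule: the 25 largest rises and falls past the test without overlap, up to 6 called members per list, all members of 12 lists, 16 fixed genes, and the 15 largest differences between genotypes. Genes outside the rule were named as list members after their values were seen. Motifs were searched on both strands of RefSeq promoter windows. The alternatives tried were leaving out genes that did not reach a log2 level of 6 on 3 arrays, the mean of probe sets, every probe set, an intensity trend, array weights, quantile normalization, median centring, a replicate block, the 6 arrays alone and leaving out each array. Python 3.11.15 and matplotlib 3.10.9 drew the figures.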

Additional observations from a re-analysis of the deposited data

Results flagged for a closer look

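Of the 152 rule-named genes in the text, 92 passed both the smoke test in deficient hosts and the limma test that the deficient smoke change differs from the wild type smoke change (adjusted p under 0.05). Each value here is the deficient change minus the wild type change on the log2 scale. It was above 0 for 34 genes and below 0 for 58.

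The xenobiotic and antioxidant genes differed upwards, by 7.21 for Cyp1a1, 2.89 for Ces1g, 2.53 for Cyp1b1, 2.47 for Aldh3a1, 1.47 for Nqo1, 1.06 for Gclc, 1.00 for Cbr3 and 0.995 for Gpx2. Macrophage and lung genes with a value above 0 were Retnla at 4.45, Scgb3a1 at 4.04, Atp6v0d2 at 1.64, Abca3 at 1.28, Krt79 at 0.981, Slc7a2 at 0.792 and Gpnmb at 0.749. Red cell, platelet, vessel, muscle and matrix genes gave 2.20 for Alas2, 1.87 for Mmp3, 1.79 for Tent5c, 1.59 for Bpgm, 1.59 for Myl4, 1.54 for Eln, 1.32 for Aplnr, 1.23 for Vwf, 1.18 for Lyve1, 0.662 for Slc4a1, 0.658 for Esm1, 0.505 for Fech and 0.432 for Clec1b. Immune genes above 0 were H2-Ea at 5.87, Ms4a1 at 0.997, Ccl17 at 0.751, Cd3g at 0.607, Ccl22 at 0.580 and Cd79b at 0.446.

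Below 0, the interferon-inducible and TRIM genes gave -2.40 for Gm12250, -1.76 for Gbp2b, -1.70 for Gm12185, -1.58 for Trim12a, -1.52 for Trim30d, -1.41 for Gbp5, -1.12 for Oas2, -1.11 for Gbp3, -1.06 for Gbp7, -0.989 for Gbp8, -0.782 for Gbp11 and -0.580 for Irf8. Monocyte and macrophage genes gave -3.60 for Cd5l, -2.17 for Adgre4, -1.83 for Treml4, -1.76 for Cd300e, -1.71 for Adgre1, -1.25 for Nr4a1, -1.21 for Csf1r, -1.15 for Cx3cr1, -0.912 for Spn, -0.786 for Gngt2, -0.709 for Pglyrp1 and -0.546 for Itgal. Antigen presentation genes gave -1.62 for H2-Eb2, -1.08 for H2-M3, -1.06 for Psmb8, -1.0 for Ciita, -0.995 for Tap1, -0.869 for Psmb9, -0.611 for H2-DMa and -0.542 for Tap2.

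Checkpoint genes gave -1.79 for Ido1, -1.68 for Cd274 and -0.902 for Pdcd1lg2. Antibody genes gave -2.46 for Igkv19-93, -1.91 for Jchain, -1.85 for Igkv9-120 and -1.38 for Igha, and cytotoxic genes gave -1.03 for Prf1, -0.977 for Gzmb and -0.935 for Klrg1. Dendritic cell and NF-kB genes gave -0.872 for Xcr1, -0.838 for Tnf, -0.758 for Cd83, -0.747 for Tnfaip3, -0.400 for Rel and -0.393 for Itgae. The rest were -1.81 for Adm, -1.65 for Ciart, -1.03 for Atf3, -0.631 for Angptl4, -0.510 for Ms4a2, -0.310 for P4ha1, -1.25 for Nr1d1, -0.808 for Dbp, -0.568 for Klf4 and -0.406 for Adipoq.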

How the results depend on the processing

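All named calls kept their direction under the 20 settings tried: 93 of 140 kept the call in every setting that tested them and 47 lost it in at least 1. Changed genes numbered 1368 with array weights (476 higher, 892 lower) and 1018 with the 6 deficient arrays alone (305 higher, 713 lower), against 481, 138 and 343. Leaving out 1 array each gave 261 to 717 changed genes, 63 to 211 higher and 194 to 506 lower. The number of genes whose smoke change differs between genotypes was 2239 to 4969 with 1 array left out and 6662 with array weights, against 2909. The intensity filter gave 508 changed genes, the mean of probe sets 495, an intensity trend 526, quantile normalization 521 and median centring 438. The labels do not say whether replicate numbers pair the samples. Deviations of same-numbered deficient arrays correlated at 0.196, 0.156 and 0.0124, and those of unlike numbers at -0.213 to 0.084. Among the deficient arrays 5 of 6 correlated best with their own number. Deviations within a group sum to 0, so these matches are not independent and do not show a pairing. Same-numbered wild type arrays correlated at 0.175, 0.365 and -0.363. A replicate block called 440 genes, 416 of them among the 481. The cause of these shifts was not tested. Dim genes limit what can be seen, since the level of an unexpressed gene on these arrays was not measured.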
